A study of Arabidopsis thaliana with 36 samples.

Results

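FRI and FRI flc-3 plants were compared at the end of short days, before any long day had been given. The comparison took 3 arrays of each line, 6 of the 36 arrays of the series, and its members were found by their line and day labels. The line called FRI is Col with the active FRI allele of Sf-2, an accession that flowers late, and its FLC is functional. In FRI flc-3 this Sf-2 allele is combined with flc-3, a loss of FLC made by fast neutrons, so the allele of FLC is the labelled difference between the lines and FRI-Sf-2 is shared. Both lines grew in soil in short days, and the apical region was taken from vegetative plants at 0 long days. The series also holds the line flc-3, with the mutant FLC and without the FRI-Sf-2 allele, and all 3 lines after 3, 5 and 7 long days, with 3 arrays in each group. Nothing in the labels says that the replicates were separate plant pools, so p-values cover the spread between arrays of a group, which may be technical.

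FRI activates transcription of FLC, a MADS-box repressor that holds back flowering until cold has silenced it. FLC acts with the related repressor SVP on floral integrators such as FT, SOC1 and FD in leaves and in the shoot apex. In short days wild-type apices remain vegetative for long, so the comparison asked which transcripts differed with FLC before the photoperiod was changed.

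Each value was a MAS5 signal intensity of a probe set on a linear scale. The median signal of the 6 arrays lay between 40.7 and 41.8, and the trimmed mean of all 36 arrays between 100.007 and 100.009. Arrays correlated at 0.9926 to 0.993 within FRI, at 0.9888 to 0.9914 within FRI flc-3 and at 0.990 to 0.9917 between the lines. Replicate 3 of FRI flc-3 stood apart, with an array weight of 0.415 in limma against a highest weight of 1.254 among the 6. The leaf mesophyll markers RCA, LHCB4.1 and PRK, 3 of the 4 fixed, had summed signals of 4035.5 to 4506.4 in FRI and 3856.8 to 4196.6 in FRI flc-3, and these ranges overlapped. Of 5 shoot meristem markers only LAS had a named probe set, with signals of 23.8 to 34.3 in FRI and 22.3 to 32.2 in FRI flc-3. These signals were low, near the 40th percentile of the 6 arrays, which averaged 22.8. This 1 dim gene is therefore no real check of the label of an apical region. The fixed markers of floral organs, vascular tissue and root had no named probe set and were not analysed here. Neither FLC nor FRI was analysed here by name, so the labels were not checked against the mutated gene. In apical tissue, a lower signal from fewer cells of a type and one from less RNA per cell cannot be told apart.

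Few transcripts were called as different between the lines before long days, and most of the calls were of less than 2-fold. With 3 arrays per line, smaller differences may have been missed, so the calls do not count all transcripts that differ. Of 14912 probe sets tested on log2(signal + 16), 199 were called at an adjusted p under 0.05 (1.33%), of which 133 were higher in FRI (0.892%) and 66 were lower (0.443%). Only 13 of the 199 differed at least 2-fold on this scale, which understates the change of dim probe sets. The median difference of the calls was 0.46 for those higher in FRI and -0.39 for those lower, while the median over all probe sets tested was 1.3e-05. An unadjusted p under 0.05 was reached by 1666 probe sets. The 3 arrays of one line lay entirely above or below those of the other for 2093 probe sets (14.0%), and for 131 of the 133 calls higher and all 66 calls lower in FRI. Among 8041 named loci, 83 passed (1.03%), with 54 at a higher (0.672%) and 29 at a lower level in FRI (0.361%). They lay on all 5 chromosomes, with 0.839% to 1.28% of the loci of a chromosome called. These shares leave out calls without a named locus and say nothing of positions within a chromosome. The fit used all 36 arrays for its estimate of spread, from which each SE given comes. A fit to the 6 arrays alone called 70 probe sets, of which 68 were among the 199. Leaving out replicate 2 of FRI flc-3 left 122 calls, and leaving out replicate 3, the array that stood apart, left 162.

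**Figure D1:**
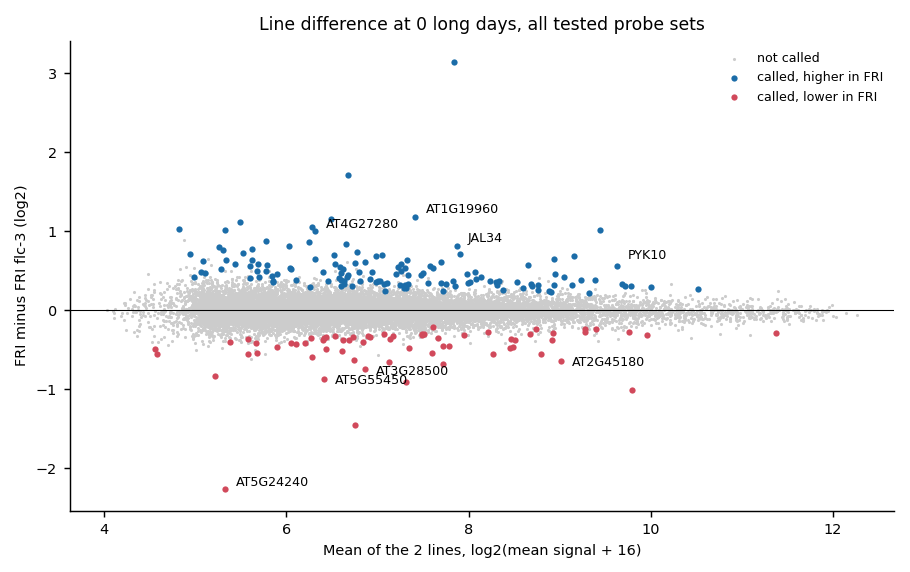
Log2 difference between FRI and FRI flc-3 at 0 long days (y axis) against the mean of the log2(mean signal + 16) of the lines (x axis) for the 14912 probe sets tested. Blue points are the 133 called higher in FRI, red points the 66 called lower, and grey points were not called. The calls lie across most of the range of signal, and most lie within 1 unit of 0.

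The named transcripts with the largest excess in FRI included an EF-hand calcium-binding protein, jacalin-related lectins and members of the legume lectin and chitinase families. AT1G19960, a locus of unknown function, had signals of 234, 250.4 and 230.5 in FRI and 84.2, 84.1 and 124 in FRI flc-3. Its difference was the largest of the named loci higher in FRI at 1.18 ± 0.11 (log2, SE, 3 against 3 arrays; adjusted p = 2.7e-09), and the lines did not overlap. AT4G27280, which encodes an EF-hand calcium-binding protein, had 95.1, 101 and 93.6 in FRI and 34.8, 40.3 and 45.8 in FRI flc-3 and did not overlap between the lines. Its log2 difference was 1.00 ± 0.14 (adjusted p = 9.9e-06). The jacalin-related lectin JAL34 (AT3G16460) had 333, 251 and 303 against 145, 151 and 187, a difference of 0.82 ± 0.11 (adjusted p = 4.7e-06), and its lowest FRI array was above the highest FRI flc-3 array.

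AT5G03350, a legume lectin family member, had 686, 771 and 671 in FRI and 410.4, 403 and 492 in FRI flc-3, with a log2 difference of 0.69 ± 0.08 (adjusted p = 1.3e-07). AT2G43590, of the chitinase family, had low signals, with mean signals of 35.4 ± 4.11 and 14.5 ± 5.45 (SD, n = 3), and differed by 0.76 ± 0.13 (adjusted p = 0.00063). AT4G12490, a hybrid proline-rich protein of the lipid transfer type, had means of 34.3 ± 7.01 and 13.2 ± 6.47 and a difference of 0.80 ± 0.15 (adjusted p = 0.0012, and 0.073 in the fit to only the 6 arrays). For AT2G43590 and AT4G12490 the FRI flc-3 mean lay below the 40th percentile of the arrays, which averaged 22.8, so the size of the difference depends on the offset.

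AT2G25450, the dioxygenase that hydroxylates the side chain of an alkenyl glucosinolate, had 572, 592 and 630.5 in FRI and 380.0, 364 and 383 in FRI flc-3, a log2 difference of 0.65 ± 0.11 (adjusted p = 0.00024). Its arrays were tightly grouped in each line. AT5G15950, an S-adenosylmethionine decarboxylase of polyamine synthesis, had 148, 147 and 137 against 93.6, 85.0 and 73.6, a difference of 0.68 ± 0.08 (adjusted p = 5e-07). TBL36 (AT3G54260), of the trichome birefringence-like family whose members acetylate cell wall polysaccharides, had 184, 192 and 174 against 92.3, 110.0 and 136 and a difference of 0.64 ± 0.11 (adjusted p = 0.00084). Of AT2G25450, AT5G15950 and TBL36, the last varied most among FRI flc-3 arrays, and none overlapped between the lines. A glycine-rich protein, AT1G67870, and AT1G64370, whose function is not known, were higher by 0.72 ± 0.11 and 0.73 ± 0.16 (adjusted p = 7.7e-05 and 0.011). AT1G64370 was not called without replicate 1 of FRI flc-3 (adjusted p = 0.11) or replicate 3 of FRI (0.08), nor in the fit to only the 6 arrays (0.071). At an offset of 1.62 neither AT1G64370 nor AT2G25450 was called (adjusted p = 0.28 and 0.33).

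Among transcripts lower in FRI, a locus for a phosphatidylinositol 4-kinase gamma family protein, AT5G24240, stood far from the rest. Its signals were 1.59, 2.83 and 2.43 in FRI and 78.6, 66.7 and 71.0 in FRI flc-3, a log2 difference of -2.27 ± 0.10 (adjusted p = 3.4e-18). It was thus near 0 in FRI and well above the 40th percentile on each FRI flc-3 array. Next were AT5G55450, a lipid transfer protein family member, with 51.5, 37.5 and 52.9 in FRI and 96.0, 93.2 and 108 in FRI flc-3 (-0.87 ± 0.09, adjusted p = 9.7e-08), and AT3G28500. AT3G28500 encodes an acidic P2 protein of the cytosolic ribosome's stalk and had 67.2, 63.2 and 91.6 against 149, 112 and 144, a difference of -0.75 ± 0.11 (adjusted p = 2e-05). For both, the highest FRI array was below the lowest FRI flc-3 array.

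AT2G45180, a bright proline-rich lipid transfer-like protein, was tightly grouped within each line, with 395, 396 and 400.0 in FRI and 641, 616 and 629.6 in FRI flc-3. Its log2 difference was -0.64 ± 0.06 (adjusted p = 3.2e-09). AT4G34400, a B3-domain transcription factor described as a direct target of FLC and SVP, had 66.2, 49.4 and 55.0 in FRI and 101, 71.6 and 86.3 in FRI flc-3. The lines were close at their nearest arrays, and the difference was -0.49 ± 0.09 (adjusted p = 0.0022), which was not called in the fit to the 6 arrays alone (0.16). AT2G21130, a cyclophilin, was lower in FRI, at a difference of -0.54 ± 0.09 with means of 144 ± 5.92 and 218 ± 22.9 (adjusted p = 0.00021).

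Smaller differences were called for a DnaJ-domain protein, AT1G56300, at -0.45 ± 0.10, for AT3G59840 at -0.47 ± 0.09, for the copper amine oxidase AT1G31690 at -0.42 ± 0.10, and for AT5G22460 and AT1G11850 at -0.41 ± 0.10 and -0.41 ± 0.11. Their adjusted p ran from 0.0025 to 0.038, and each of these 5 calls depended on single arrays. Without any one of the 6 arrays AT1G11850 had an adjusted p of 0.072 to 0.15. AT1G56300 was not called without replicate 2 of FRI flc-3 (0.051) or replicate 1 of FRI (0.059). AT3G59840 had an adjusted p of 0.05 without replicate 3 of FRI flc-3. AT5G22460 was not called without that array (0.19), without replicate 1 of FRI (0.065) or without replicate 3 of FRI (0.25). AT1G31690 was not called without replicates 1 or 2 of FRI flc-3 (0.11 and 0.12) or replicates 1 or 3 of FRI (0.052 and 0.17). Of the 45 called loci that are named by rule, 22 were called in the fit to only the 6 arrays, and 17 were called under each of the 18 alternatives in which they were tested, and of these AT2G43590 did not pass the filter at the 60th percentile. These 17 include AT1G19960, AT4G27280, JAL34, JAL33, PYK10, AT5G24240, AT5G55450, AT3G28500, AT2G45180 and COR15B.

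**Figure D2:**
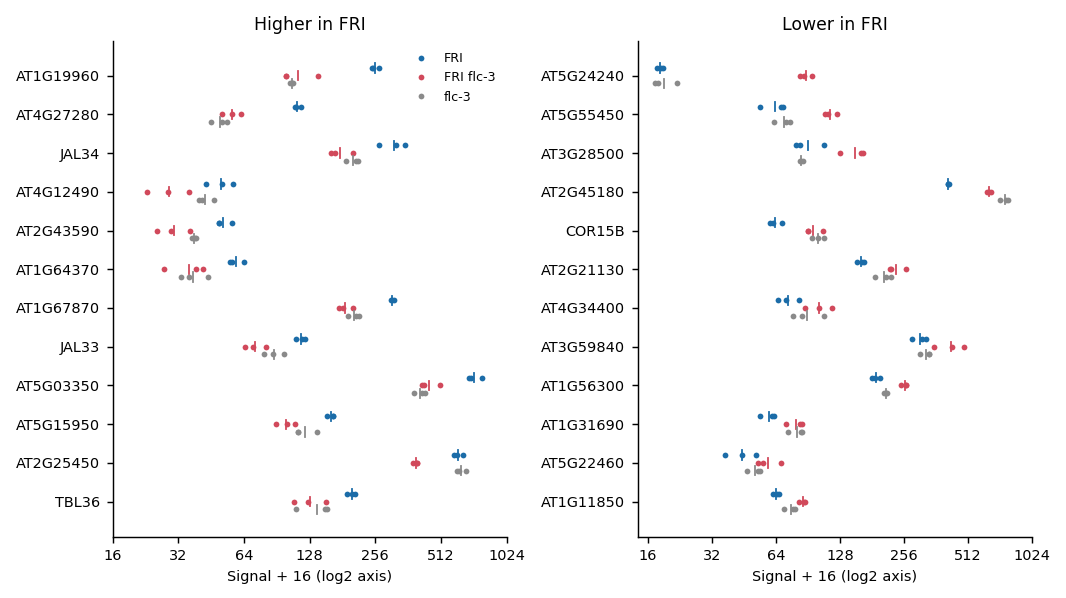
Signal + 16 on a log2 axis for the 12 named loci of largest difference in each direction among those called, without overlap and with a line mean above the 40th percentile, with 1 point per array at 0 long days and a bar at each line's mean signal + 16. The blue FRI points do not overlap the red FRI flc-3 points at any of these loci, by which they were chosen. The grey flc-3 points lie beside FRI flc-3 at AT1G19960 (90.0 on average) and beside FRI at AT5G24240 (3.01).

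The line flc-3 also lacks a functional FLC but does not carry FRI-Sf-2, and its 3 arrays at 0 long days are given beside the others. FRI against flc-3 called 166 probe sets (1.11%) and FRI flc-3 against flc-3 called 290 (1.94%), or 142 with array weights. Both share arrays with the comparison of FRI and FRI flc-3, so only values are set side by side. At some loci flc-3 had a level like that of FRI flc-3. AT1G19960 had 88.4, 91.0 and 90.5 in flc-3, AT4G27280 had 34.8, 29.0 and 37.4 and AT5G03350 had 417, 401 and 369. FRI exceeded flc-3 there by 1.26 ± 0.11, 1.18 ± 0.14 and 0.82 ± 0.08 (adjusted p = 6.8e-10, 4.7e-07 and 3e-09), while FRI flc-3 minus flc-3 was 0.08 ± 0.11, 0.18 ± 0.14 and 0.13 ± 0.08 and was not called. AT2G45180 had 777, 759 and 707 in flc-3, above both lines with FRI-Sf-2, at differences of -0.89 ± 0.06 for FRI and -0.24 ± 0.06 for FRI flc-3 (adjusted p = 2.3e-12 and 0.025).

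At other loci flc-3 had a level like that of FRI, although its FLC is mutant. AT5G24240 had 1.32, 5.84 and 1.88 in flc-3, so its signal was high in FRI flc-3 alone. FRI minus flc-3 was -0.05 ± 0.10 (adjusted p = 0.91) and FRI flc-3 minus flc-3 was 2.22 ± 0.10 (1.4e-17). AT5G55450 had 55.3, 58.8 and 46.8 and AT3G28500 had 69.7, 67.8 and 67.2, with FRI flc-3 above flc-3 by 0.72 ± 0.09 and 0.83 ± 0.11 (adjusted p = 6.9e-06 and 5.6e-06). The glucosinolate dioxygenase AT2G25450 showed this among the loci higher in FRI, with 591, 649 and 606 in flc-3 and a FRI minus flc-3 difference of -0.04 ± 0.11 (adjusted p = 0.94). These loci thus had a level in FRI flc-3 that differed from both other lines. AT4G34400 lay between, with 68.4, 60.6 and 92.2 in flc-3, and neither of its differences from flc-3 was called (-0.29 ± 0.09 and 0.20 ± 0.09).

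Of the gene lists described, that of the endoplasmic reticulum body and jacalin-related lectins had the most calls. The endoplasmic reticulum body of Brassicaceae stores beta-glucosidases that act on glucosinolates and related compounds after wounding, and jacalin-related lectins bind to the released enzyme. Of 7 tested members of 12 fixed, 4 were higher in FRI and none lower, beside 0.672% higher among all named loci, with a median log2 difference of 0.52, against -0.0024 over the 8041 named loci. PYK10 (AT3G09260), the main beta-glucosidase of these bodies, had 995, 899.8 and 926 in FRI and 589, 667 and 649 in FRI flc-3 (0.55 ± 0.07, adjusted p = 5.7e-06). In flc-3 it had 644, 682 and 666, near the level of FRI flc-3. The lectins JAL33 (AT3G16450) and JAL22 (AT2G39310) had means of 101 ± 5.84 and 101 ± 3.52 in FRI against 56.0 ± 8.19 and 66.2 ± 9.96 in FRI flc-3 (SD, n = 3). They differed by 0.70 ± 0.12 and 0.52 ± 0.09 (adjusted p = 0.00036 and 0.00073). NAI1 (AT2G22770), the bHLH factor required for these bodies, stood at -0.22 ± 0.13 (adjusted p = 0.56) and was not called, with signals of 22.9, 22.4 and 24.6 and 19.8, 42.3 and 30.0. The other two members, chosen for mention after their values were seen, were NAI2 (AT3G15950) at 0.11 and the lectin JAL23 (AT2G39330) at -0.08, and neither was called.

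Of 3 tested genes of aliphatic glucosinolate synthesis, 2 were called, both higher in FRI (0.672% of all named loci), with a list median of 0.30. Beside AT2G25450 this was BCAT4 (AT3G19710), the aminotransferase that starts methionine chain elongation, with 1082, 1119 and 1164 in FRI and 854, 927 and 951 in FRI flc-3 (0.30 ± 0.07, adjusted p = 0.03). Although its lines did not overlap, BCAT4 was not called without replicate 1 or 2 of FRI flc-3 (adjusted p = 0.14 and 0.075) or without replicate 1, 2 or 3 of FRI (0.053, 0.092 and 0.15). In flc-3 BCAT4 had 1140.5, 1060.8 and 1118.4, near the level of FRI although FLC is mutant there. FRI minus flc-3 was 0.02 ± 0.07 (adjusted p = 0.96), and FRI flc-3 minus flc-3 was -0.28 ± 0.07 (0.041). For BCAT4, as for AT2G25450 above, FRI flc-3 thus stood apart from both other lines. AT2G31790, a glucosyltransferase of the same route, stood at 0.18 ± 0.08 (adjusted p = 0.32). Of 5 tested flavonoid and anthocyanin genes, 1 was called. DFR (AT5G42800), the reductase that commits dihydroflavonols to anthocyanin, had 445, 439 and 451 against 337, 396 and 326 (0.33 ± 0.07, adjusted p = 0.0048, and 0.057 without replicate 3 of FRI flc-3). In flc-3 DFR was higher still, at 527, 574 and 563, so FRI stood between the mutant lines. The other four members ran from -0.03 for UGT78D2 to 0.19 for UF3GT, and their differences were not called.

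The 4 tested cold and dehydration genes did not move one way. COR15B (AT2G42530), a chloroplast stroma protein that protects membranes during freezing, was lower in FRI with 45.8, 52.2 and 44.2 against 74.9, 74.5 and 90.4 (-0.60 ± 0.12, adjusted p = 0.0027). Its close relative COR15A (AT2G42540) stood at -0.43 ± 0.12 (adjusted p = 0.075, and 0.018 at an offset of 32). The dehydrin LTI30 (AT3G50970) was higher, with 45.4, 51.1 and 45.6 against 28.3, 21.1 and 29.1 (0.59 ± 0.13, adjusted p = 0.011). LTI30 was not called without replicate 2 of FRI flc-3 (0.11) or replicate 2 of FRI (0.07). The dehydrin COR47 (AT1G20440) had nearly equal means of 231 and 232 and was not called (adjusted p = 0.99).

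Only 3 of 18 fixed floral integrators and promoters were tested, and none was called before long days, beside 1.03% of all named loci. With so few members this count does not show whether integrators differed, and all 3 differences were below 0. AGL24 (AT4G24540), a MADS-box promoter of flowering, had 125, 149.7 and 149 in FRI and 187, 189 and 162 in FRI flc-3. The lines did not overlap there, but the difference of -0.31 ± 0.09 did not pass (adjusted p = 0.094). FD (AT4G35900), the bZIP partner of FT at the apex, had 26.9, 28.4 and 25.5 and 37.0, 35.8 and 22.5, and AGL42 (AT5G62165), a relative of SOC1, had 12.5, 14.8 and 11.1 and 13.6, 17.8 and 13.0. The arrays of the lines overlapped for both FD and AGL42, at differences of -0.14 ± 0.11 and -0.10 ± 0.09 (adjusted p = 0.71 and 0.75), and AGL42 was dim in both. The list median was -0.14, and -0.29 without replicate 3 of FRI flc-3. SMZ (AT3G54990), an AP2-type repressor of flowering, stood at 0.17 ± 0.10 (adjusted p = 0.59).

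No call was made among the 3 tested regulators of FLC (FY, LD and AT2G30120), the clock gene GI and the Dof-type gene AT1G69570, 4 gibberellin receptors and signalling genes, 3 leaf mesophyll and 3 cell cycle genes. Differences of these genes ran from -0.23 for the gibberellin receptor GID1B to 0.15 for AT2G30120. Of 9 tested loci with a MADS-box type symbol, 1 was called, beside 1.03% of all named loci. AGL16 (AT3G57230), known as a repressor of flowering, had 48.4, 54.3 and 53.5 in FRI and 66.6, 71.3 and 75.3 in FRI flc-3 (-0.36 ± 0.09, adjusted p = 0.043). The lines did not overlap, but without any one of the 6 arrays, and with a replicate block (0.056), AGL16 was not called (adjusted p = 0.05 to 0.2 over the 6). Of 10 expansins and xyloglucan endotransglucosylases, 1 was called. EXPB3 (AT4G28250), a beta-expansin that loosens cell walls, had 623, 598 and 569.9 against 457, 443 and 428 (0.42 ± 0.09, adjusted p = 0.013). It was not called without replicate 2 or 3 of FRI flc-3 (0.053 and 0.06) or replicate 1 or 2 of FRI (0.085 and 0.053). Glutathione S-transferases and cytochromes P450, with 5 and 8 tested members, had no call. Over all lists 11 of 82 tested members were called, beside 1.03% of all named loci, and 7 without replicate 2 of FRI flc-3 or without replicate 2 of FRI. Since the lists were chosen with earlier results of these data known, these counts describe the lists and do not test them.

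**Figure D3:**
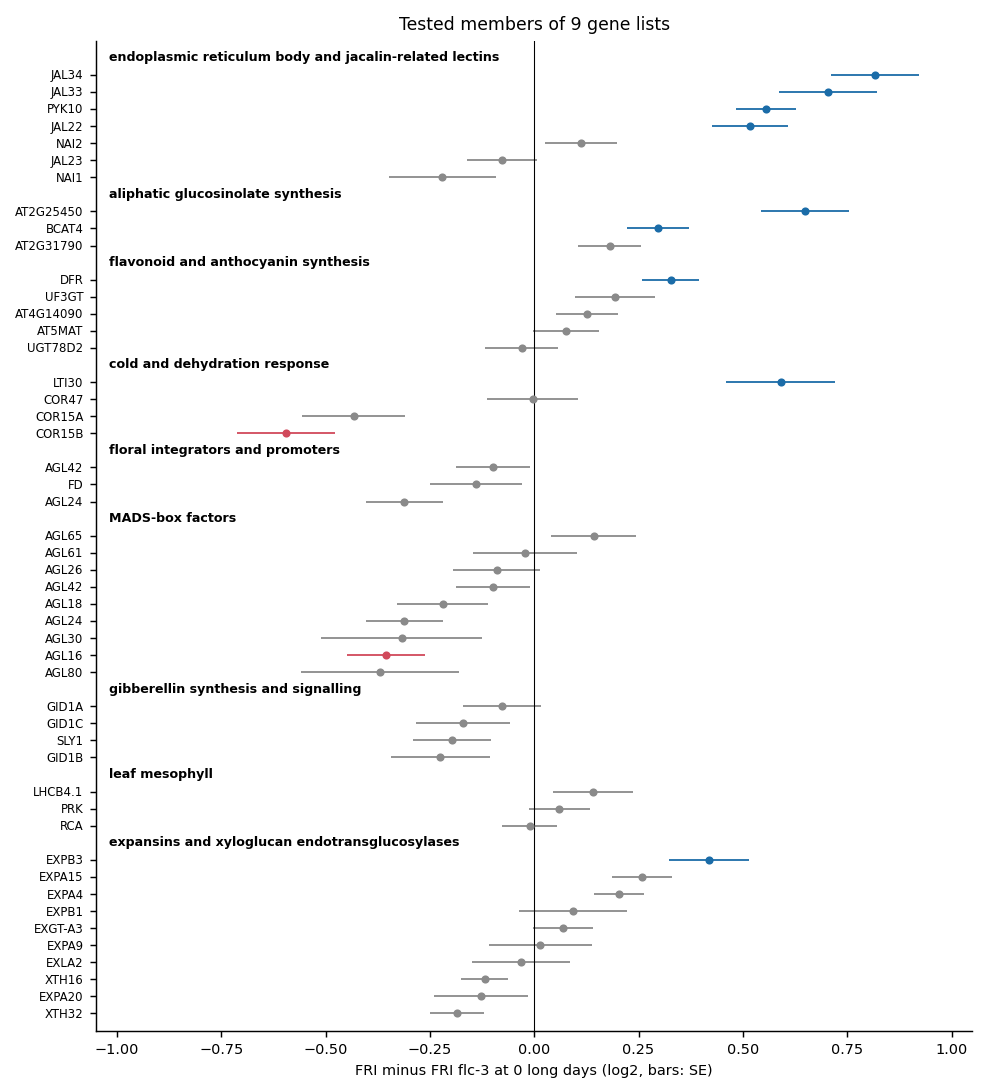
Log2 difference between FRI and FRI flc-3 at 0 long days (x axis, bars SE) for the tested members of 9 gene lists. Blue points were called higher in FRI, red points lower, and grey points were not called. In the endoplasmic reticulum body list 4 of 7 points are blue, and in the list of floral integrators 0 of 3 are coloured. Of all named loci 1.03% were called.

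The 38 called loci outside the naming rule had log2 differences from -0.56 to 0.64. Without at least 1 of the 6 arrays 28 of these calls were lost. JAG, AT1G73600 and AT2G30600 are named here, chosen after their values were seen. JAG (AT1G68480), a zinc finger factor of lateral organ growth, was higher in FRI with means of 39.8 and 26.3 (0.41 ± 0.10, adjusted p = 0.025). Its paralogue NUB (AT1G13400) was lower in FRI, with 60.5, 58.1 and 59.5 against 87.1, 88.8 and 67.1 (-0.36 ± 0.08, adjusted p = 0.013). The pair is known to act together in leaf and stamen growth. Each call was lost without 3 of the 6 arrays in turn, for JAG without replicate 2 or 3 of FRI or replicate 2 of FRI flc-3 (adjusted p up to 0.26), and for NUB without replicate 2 of FRI or replicate 1 or 2 of FRI flc-3 (up to 0.12). AT1G73600, a phosphoethanolamine N-methyltransferase of phosphocholine synthesis, had 476 and 315 (0.57 ± 0.10, adjusted p = 0.00039). The locus AT2G30600 was the only called locus with 2 tested probe sets, and both were called higher in FRI, at 0.54 ± 0.07 and 0.70 ± 0.12.

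Of the 199 called probe sets, 108 had no gene name in the annotation and 7 had several genes or no matched locus. The largest difference of the comparison lay among those without a name, while the largest of those lower in FRI was that of the named AT5G24240 (-2.27). The probe set 250476_at had 676, 676 and 650.1 in FRI and 59.8, 64.8 and 59.5 in FRI flc-3, a difference of 3.14 ± 0.08, and 38.0, 32.2 and 45.8 in flc-3. The probe set 256766_at had 175, 166 and 166 against 43.8, 40.5 and 37.8 (1.71 ± 0.10), with 57.7, 67.2 and 66.8 in flc-3. Both were high in FRI and low in both lines with a mutant FLC. Lower in FRI were 264324_at, with 46.8, 51.3 and 48.3 against 168, 144 and 176 (-1.46 ± 0.09), and 261768_at, with 98.8, 101 and 102 against 200.1, 205.5 and 202 (-0.91 ± 0.07). In flc-3 the former had 42.6, 45.7 and 37.8, like FRI, and the latter had 204.5, 207.2 and 224, like FRI flc-3. Adjusted p for these 4 probe sets ran from 3.4e-25 to 3.9e-11.

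The same lines were also compared after 3, 5 and 7 long days. Arrays of these days do not enter the day 0 differences, but they do enter the filter and the estimate of spread behind the day 0 calls. As a mean of these days, 9 against 9 arrays, 3451 probe sets were called (23.1%), against 335 at day 3, 1870 at day 5 and 3510 at day 7 when taken singly. Of the 199 calls at day 0, 129 were called in the same direction on the later days, 17 in the opposite direction, and 53 were not called. The 129 were 64.8% of the day 0 calls and 3.74% of the later calls. They rest on the mean of the later days, which can hide a reversal on a single day. Of the 129, 256766_at (1.71 at day 0) stood at 0.27, -0.48 and 1.01 by day, with an opposite call at day 5 (adjusted p = 0.00088). Likewise 261768_at (-0.91 at day 0) stood at -0.67, -0.46 and 0.48, with an opposite call at day 7 (2e-06). Over all 14912 probe sets the differences at day 0 and later correlated at r = 0.279 (Spearman rho 0.179), as a description across probe sets that are not independent and come from the same arrays within each stage. The difference changed between day 0 and the later days for 1009 probe sets (6.77%), of which 103 were called at day 0. This last contrast reuses the day 0 arrays that made the calls, so it is not independent of them. FRI flc-3 is labelled transition from day 3 on while FRI is labelled vegetative, so on the later days the lines also differ in stage.

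**Figure D4:**
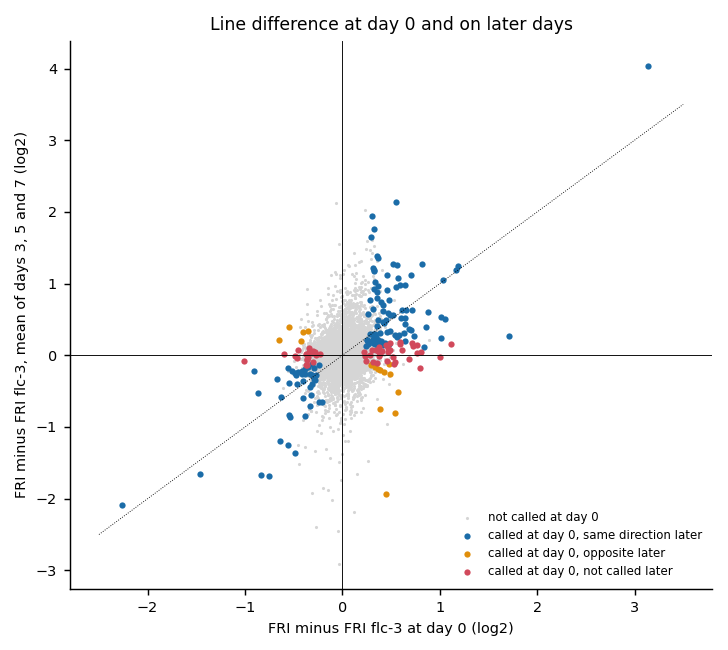
Log2 difference between FRI and FRI flc-3 as the mean of days 3, 5 and 7 (y axis) against that at 0 long days (x axis), with 1 point per probe set. Of the 199 coloured points, 129 (blue) were called in the same direction later, 17 (orange) in the opposite direction and 53 (red) not called, and the dotted line marks equal differences.

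Several differences were present at day 0 and larger later. PYK10 differed by 0.55 at day 0 and by 1.27, 2.03 and 3.13 after 3, 5 and 7 long days, a change of 1.59 ± 0.08 (adjusted p = 4.5e-16). In FRI its mean signal was 326 at day 7, and in FRI flc-3 it was 23.5. JAL22 and JAL34 changed by 0.75 ± 0.11 and 0.46 ± 0.12 (adjusted p = 2.9e-06 and 0.014). DFR went from 0.33 to 0.39, 1.02 and 2.13, a change of 0.85 ± 0.08 (adjusted p = 4.2e-10). BCAT4 stood at 0.30 at day 0 and at -0.22, 1.79 and 3.41 later, with no call at day 3 (adjusted p = 0.13), and it changed by 1.36 ± 0.09 (4.1e-14). Lower in FRI, AT3G28500 went from -0.75 to -0.81, -1.95 and -2.30, AT4G34400 from -0.49 to -0.92, -1.45 and -1.73 and AT2G45180 from -0.64 to -0.49, -1.16 and -1.95. The changes of these 3 loci were -0.94 ± 0.12, -0.88 ± 0.11 and -0.56 ± 0.07 (adjusted p = 8.2e-07, 3e-07 and 3.7e-07). AGL42 and FD, not called at day 0, were lower in FRI over the later days, at differences of -1.06 ± 0.05 and -0.74 ± 0.06 (adjusted p = 2.6e-18 and 1.6e-11).

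AT1G19960 and AT5G24240 were called in the same direction at day 0 and later, at 1.18 and -2.27 at day 0 and 1.25 and -2.09 over the later days, and their changes were not called (adjusted p = 0.87 and 0.46). Other differences were called at day 0 and not for the mean of the later days. AT4G27280 went from 1.00 to -0.26, 0.01 and 0.17, a change of -1.03 ± 0.16 (adjusted p = 1.4e-05). AT5G03350 had 0.69 at day 0 and 0.39, -0.59 and 0.06 later. A mean over these days hides a call in the day 0 direction at day 3 (adjusted p = 0.0015) and an opposite call at day 5 (3.9e-07). AT2G43590 and AT4G12490 had means of 0.03 ± 0.08 and -0.18 ± 0.09 over the later days, and COR15B had 0.02 ± 0.07. Their changes were called (adjusted p = 0.0014, 0.00012 and 0.0023).

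The naming rule gave 8 further loci, up to 4 per direction, with a called change and no call for the mean of the later days. AT1G64370, AT3G59840 and AT1G56300, described above, also had this pattern, as did AT4G28310 and AT3G53400, which are outside the rule. For AT3G53400 this mean hides called differences of opposite sign, 0.32 at day 5 and -0.36 at day 7 (adjusted p = 0.002 and 0.00023). Higher in FRI at day 0 were AT4G23490 at 0.54 ± 0.14, the polygalacturonase AT1G48100 at 0.47 ± 0.07, the lipid droplet-associated protein AT1G67360 at 0.35 ± 0.06 and the serine carboxypeptidase-like scpl50 (AT1G15000) at 0.32 ± 0.07. The means of these 4 loci over the later days lay between -0.09 and 0.08, but single days lay outside this range. Among these, AT1G48100 was called at day 5 (0.23, adjusted p = 0.03). Lower in FRI at day 0 were AT1G20430 at -0.37 ± 0.07, AT4G32915 at -0.35 ± 0.09, AT4G30660 at -0.30 ± 0.08 and AT2G23120, a late embryogenesis abundant protein, at -0.27 ± 0.06. AT1G20430 and AT4G30660 had means of 281 and 319 in flc-3, nearer to FRI (305 and 352) than to FRI flc-3 (400.3 and 436). The day 0 calls of AT4G23490, scpl50, AT4G32915, AT4G30660 and AT2G23120 were lost without single arrays of either line, with adjusted p of up to 0.2, 0.11, 0.15, 0.28 and 0.083. Those of AT1G20430, AT1G48100 and AT1G67360 were lost in the fit to only the 6 arrays (adjusted p = 0.076, 0.076 and 0.1).

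The direction of the mean over the later days was opposite for 17 of the 199 probe sets, among them 7 named loci. GH9B13 (AT4G02290), a glycosyl hydrolase family endoglucanase, had 796, 745 and 708 in FRI and 506, 584 and 628 in FRI flc-3 at day 0 (0.38 ± 0.07, adjusted p = 0.001). Its later mean was -0.20 ± 0.04 (0.00023), with -0.04, -0.17 and -0.39 by day, of which only day 7 was called (4.6e-05). AT2G41410, a calmodulin-like protein, had 324, 305 and 279.9 against 208.1, 224 and 204.6 at day 0 (0.48 ± 0.07, adjusted p = 9.3e-06) and -0.35, 0.26 and -0.28 on the later days, so its sign varied among them. The microtubule-associated SP1L2 (AT1G69230) went from 0.49 ± 0.12 to a later mean of -0.27 ± 0.07, with -0.06, 0.06 and -0.80 by day, of which only day 7 was called (adjusted p = 1.9e-06). ECS1 (AT1G31580) went from 0.30 ± 0.08 to -0.12 ± 0.04, with -0.12, -0.33 and 0.09 by day, of which only day 5 was called (0.0024). Of the loci lower in FRI at day 0, NUB went from -0.36 ± 0.08 to 0.34 ± 0.05, with -0.30, 0.11 and 1.20 by day. NUB was still called lower at day 3 (adjusted p = 0.032), and day 7 alone was called higher (1.7e-14). AT4G33550, a lipid transfer-type protein, went from -0.40 ± 0.09 to 0.33 ± 0.05, with 0.09, 0.49 and 0.39 by day. AT1G31690 went from -0.42 ± 0.10 to 0.20 ± 0.06, with -0.15, -0.07 and 0.82 by day, so its later mean was above 0 through day 7 alone. The changes of these 7 loci were called, with adjusted p from 3.3e-07 to 0.0013. Without each of the 6 arrays in turn, the day 0 call of GH9B13 and AT2G41410 was kept. In the fit to only the 6 arrays GH9B13 was not called (adjusted p = 0.11). ECS1 was not called without any one of the 6 arrays (adjusted p = 0.055 to 0.12). SP1L2 was called without replicate 1 of FRI flc-3 or replicate 2 of FRI and not without any other of the 6 (adjusted p otherwise up to 0.15). AT4G33550 was not called without replicate 2 or 3 of either line (up to 0.15), and NUB was not called without replicate 1 or 2 of FRI flc-3 or replicate 2 of FRI (up to 0.12).

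**Figure D5:**
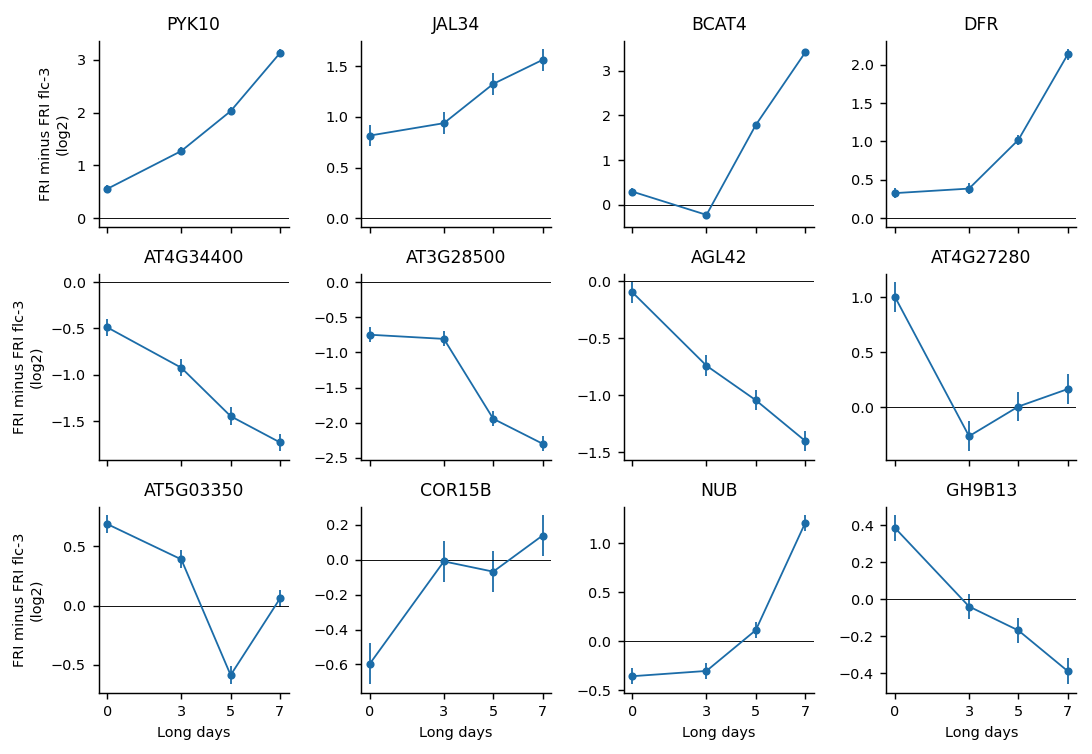
Log2 difference between FRI and FRI flc-3 (y axis, bars SE, 3 against 3 arrays) against the number of long days (x axis) for 12 loci, with a separate y scale in each panel. PYK10 runs from 0.55 to 3.13 and AGL42 from -0.10 to -1.40, while AT4G27280 falls from 1.00 at day 0 to -0.26 at day 3 and NUB goes from -0.36 to 1.20.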

How the data were processed

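Total RNA of the apical region was hybridized to 1-colour arrays, 1 array per sample. The deposited intensity of a probe set is a linear MAS5 signal, per the submitters' processing notes. Its version, scaling target and masking are not given in the sources used here. No further scaling was applied.

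Of 22810 probe sets, 64 controls were left out, and 14912 were tested that passed the 40th percentile of signal in 3 or more of the 36 arrays. limma 3.58.1 in R 4.3.3 was fitted to log2(signal + 16) with a mean for each of the groups (residual degrees of freedom: 24), followed by eBayes(trend). Tests were two-sided, adjusted by Benjamini-Hochberg over 14912 probe sets, and called at an adjusted p under 0.05. The number of arrays limits the precision. The procedure was tested on simulated data.

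Names came from an annotation table with 1 gene for 13513 probe sets, of which 13436 matched a RefSeq locus of TAIR10.1; 8730 probe sets have no name there. The brightest probe set stood for a locus. Reported are the 12 called, non-overlapping and bright loci of largest difference per direction, up to 5 list members of smallest p and 2 unnamed probe sets per direction. Also reported, by the mean of the later days, are up to 4 loci per direction of opposite sign and up to 4 of called change and no later call. Families in the lists were matched by symbol or synonym, since no product descriptions were used. Members and lists were chosen with earlier results of these data known.

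Same-numbered replicates of the lines did not deviate together (correlations of -0.066, -0.071 and -0.0699), so the numbers were not taken to pair the samples. Alternatives were other offsets (1.62 and 32), quantile and 75th percentile scaling, other filters, a replicate block, array weights, eBayes(trend) switched off, a fit to the 6 arrays alone, and omission of each of the 6 arrays in turn.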

Additional observations from a re-analysis of the deposited data

Results flagged for a closer look

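For 48 of the loci reported, the difference between FRI and FRI flc-3 over days 3, 5 and 7 was itself different from that at day 0, by a contrast in the limma fit at an adjusted p under 0.05. Values are the later difference minus the day 0 difference, as log2, so a positive value means that FRI gained on FRI flc-3. The later days differ from day 0 in long days and also in labelled stage, and the day 0 arrays enter this contrast.

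Among loci higher in FRI at day 0, it grew for PYK10 (1.59), BCAT4 (1.36), DFR (0.85), JAL22 (0.75) and JAL34 (0.46). It shrank or turned for AT4G27280 (-1.03), AT4G12490 (-0.98), SP1L2 (-0.76), AT2G43590 (-0.73), AT5G03350 (-0.73), AT4G23490 (-0.63), AT2G41410 (-0.60), AT1G64370 (-0.59), GH9B13 (-0.58), AT1G48100 (-0.42), ECS1 (-0.42), scpl50 (-0.41), AT5G15950 (-0.32) and AT1G67360 (-0.27).

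Among loci lower in FRI at day 0, the deficit grew for AT3G28500 (-0.94), AT4G34400 (-0.88) and AT2G45180 (-0.56). It shrank or turned for AT4G33550 (0.73), NUB (0.69), AT1G31690 (0.62), COR15B (0.62), AT1G56300 (0.53), AT3G59840 (0.43), AT1G20430 (0.38), AT4G30660 (0.35), AT4G32915 (0.33) and AT2G23120 (0.27).

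List members that were not called at day 0 changed as well. Downward were CYP71B22 (-1.06), AGL42 (-0.96), THI2.1 (-0.73), FD (-0.60), XTH16 (-0.47) and GSTU27 (-0.43). Upward were LHCB4.2 (0.22), AT2G31790 (0.30), UGT78D2 (0.36), CYP71B5 (0.48), AGL18 (0.51), UF3GT (0.69), AT4G14090 (0.77), AT5MAT (0.80), COR15A (0.83) and NAI1 (0.90).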

How the results depend on the processing

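The count of 199 probe sets called between FRI and FRI flc-3 at day 0 was 169 at an offset of 1.62 and stayed within 1.5 times under other offsets, scalings, filters, array weights (172), no trend and the replicate block (187). It was 70 in the fit to only the 6 arrays and 65 there with the replicate block, where fewer arrays estimate the spread. Leaving out 1 array gave 122 to 196 calls, the fewest without replicate 2 of FRI flc-3. The replicate numbers were not taken to pair the samples, and the replicate block ended 1 named call, AGL16. The count over days 3, 5 and 7 ran from 2621 to 3573 and that of the change from 822 to 1036, within 1.5 times of 3451 and 1009. FRI flc-3 against flc-3 had 290 calls and 142 with array weights; the cause was not tested, and this alternative was chosen after seeing the data. Of 82 list members 11 were called, 13 at an offset of 32, 7 at an offset of 1.62, 6 with the replicate block in the fit to only the 6 arrays, and 7 to 9 without 1 array. Of 45 named calls 17 held under each of the 18 alternatives in which they were tested (AT2G43590 was not tested at the 60th percentile filter), 20 were lost without at least 1 of the 6 arrays and 7 were lost only in the fits to the 6 arrays; none turned in sign. The offset sets the size of differences of dim probe sets, and dim means limit what could be seen for AGL42, NAI1 and FD.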
